A study of Mus musculus with 38 samples.

Results

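Wild-type mouse embryonic stem cells (129S6/SvEvTac) that had been given only the solvent DMSO were compared between 24 h and 1 h of exposure, so that no drug was present on either side. The members were chosen by their labels alone: 2 libraries of DMSO for 24 h and 2 of DMSO for 1 h, all from experimental batch 2450, 4 of the 38 libraries in the series. The series profiles total RNA from these cells under BRM014, a compound that blocks the ATPase subunits of the SWI/SNF chromatin remodelling complex, with an inactive analog and vehicle as its controls. Cells were kept on gelatin in medium with serum and LIF. A further pair of groups with 2 libraries each from the same batch, 10 µM of the inactive analog for 1 h and for 24 h, shares no library with the vehicle groups and provides the same time contrast in cells that received a compound. The labels do not give the amount of DMSO, the time since plating, or whether the medium was changed between the 2 time points. Replicates are called biological in the protocols, without word of separate cultures or days. The p-values measure a spread between libraries that was estimated over all 26 libraries of the batch, not from these 4 alone.

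A vehicle time contrast holds everything that changes in a dish over a day: cell number, nutrients, secreted factors and exposure to the solvent. Embryonic stem cells keep their identity through a core of transcription factors supported by LIF and by BMP signals, and they sit close to alternative states marked by germline, early embryo or lineage genes. Among the programmes known to follow culture conditions are the p53 pathway, in which a transcription factor turns on growth arrest and feedback genes, and the amino acid response, in which the factor ATF4 binds CHOP-ATF composite elements and turns on amino acid synthesis, uptake and tRNA charging genes.

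The 4 vehicle libraries held 21.0 M and 22.5 M counted reads at 1 h and 21.6 M and 19.3 M at 24 h. Read levels are given as CPM, the counts scaled to the library's total, with TMM scaling and not corrected for gene length, and changes are on the log2 scale with their standard error (SE), 24 h minus 1 h. The fit held all 26 libraries of the batch, and for the 6645 genes with a mean log2 CPM of at least 4 the median half-width of the 95% interval of the vehicle change was 0.17. Of 13 embryonic stem cell markers, 11 were above 0 in all 4 libraries (summed level 6732 and 6832 CPM at 1 h, 7244 and 7058 CPM at 24 h), while Sox2 and Tfcp2l1 were listed at 0. These 2 were at 0 in all 38 libraries, as were 10 of 26 listed ribosomal protein genes. A listed 0, here and below, is therefore not read as absence of the RNA. The fibroblast markers summed to 54.5 and 43.9 CPM at 1 h and 41.8 and 44.9 CPM at 24 h, with the collagen genes Col1a2 and Col3a1 and the receptor gene Pdgfra listed at 0.

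The replicates of DMSO at 24 h differed from each other more than those of any other of the 13 groups (chi-square per degree of freedom over genes of 16.3, against 2.04 for DMSO at 1 h). Replicate 2 minus replicate 1 had an SD of 0.228 across genes on the log2 scale, against 0.112 between the 1 h replicates. That difference followed gene properties: across 8354 genes it had a Pearson r of 0.38 with log2 exonic length and of -0.40 with GC content, as a description across genes. Against the 1 h libraries, 24 h replicate 2 had an r of 0.26 with length and -0.26 with GC content, and replicate 1 of -0.005 and 0.027. Against the same DMSO 1 h libraries, replicate 2 of the analog at 24 h had 0.13 and -0.32, and replicate 1 had 0.07 and -0.09. The part of this library property in each change below was not tested, though calls with each library's trend over GC content and length removed are given under processing. Results are therefore given with a note where leaving out any 1 of the 4 libraries removes a call. Of 159 named genes that passed the test in the vehicle contrast, 93 kept their call with each of the 4 libraries left out in turn, and a gene described below as changed is one of those unless its loss is stated beside it.

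One day in vehicle moved many genes by small amounts. The edgeR quasi-likelihood test with Benjamini-Hochberg adjustment called 2320 of 12517 genes, 18.5% of those tested: 1115 were higher at 24 h (8.91%) and 1205 lower (9.63%). Counts of list members called in vehicle are to be read beside these shares. The median size of a called change was 0.39, and the median of all tested genes was -0.01. Changes of at least 2-fold were called for 65 genes upwards and 157 downwards. The 24 h values lay wholly above the 1 h values for 26.3% of tested genes and wholly below for 30.3%. The number of calls rested on the libraries used: it was 1147 to 2736 with 1 library left out, highest without 24 h replicate 1, and 1202 without 24 h replicate 2. A fit on these 4 libraries alone, which took the spread from them only, called 895 genes. The DMSO 24 h replicates differed most, so the spread shared over the 13 groups may be too small for this contrast.

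**Figure D1:**
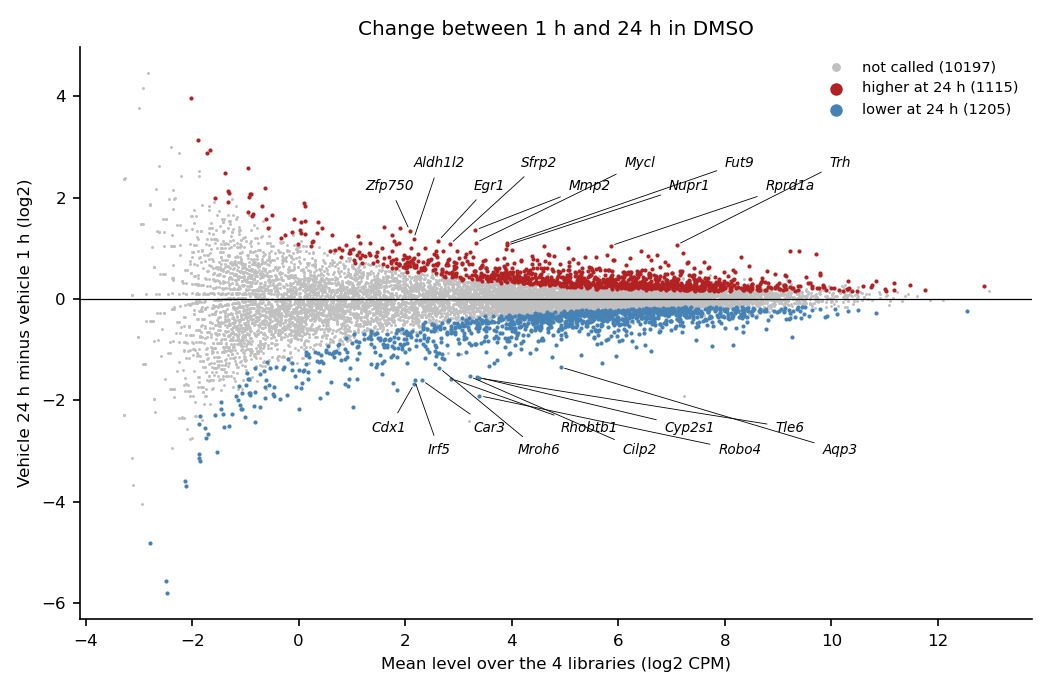
Each point is 1 of 12517 tested genes, with its mean log2 CPM over the 4 vehicle libraries on the horizontal axis and its log2 change from 1 h to 24 h of DMSO on the vertical axis; coloured points are the 1115 genes called higher and the 1205 called lower. Most called genes changed by less than 2-fold, and among the labelled genes Robo4 fell most.

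Among genes with a mean log2 CPM of at least 2, the largest falls were in surface, lineage and enzyme genes at low to moderate levels. Robo4, an endothelial receptor of the Roundabout family (chr9:37401897-37415115, GRCm38), stood at 20.1 and 20.1 CPM in the 1 h libraries and at 5.28 and 5.45 CPM in the 24 h libraries. Its groups did not overlap, and it fell by 1.91 ± 0.14 on the log2 scale (edgeR adjusted p = 1.54e-10). Cdx1, a homeobox gene activated by Wnt signals, went from 7.79 and 8.62 CPM to 3.49 and 1.57 CPM (-1.67 ± 0.21, edgeR adjusted p = 1.65e-06). The water and glycerol channel gene Aqp3 was more abundant, at 46.6 and 49.4 CPM at 1 h and 19.8 and 18.03 CPM at 24 h (-1.34 ± 0.11, edgeR adjusted p = 1.31e-09). Both 24 h libraries were below both 1 h libraries for each of these genes. Tle6, a Groucho-family gene of the maternal complex in oocytes and early embryos, fell from 17.5 and 18.5 CPM to 6.84 and 5.29 CPM (-1.56 ± 0.14, edgeR adjusted p = 4.85e-09). Cyp2s1, a cytochrome P450 of epithelia, fell from 16.6 and 17.9 CPM to 5.88 and 5.98 CPM (-1.54 ± 0.12, edgeR adjusted p = 7.23e-10). Car3, a carbonic anhydrase of muscle and fat, Irf5, an interferon regulatory factor, and Rhobtb1 fell by 1.60 ± 0.16, 1.60 ± 0.18 and 1.57 ± 0.16.

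The largest rises named by the rule were slightly smaller. Mmp2, a secreted protease that degrades matrix collagen, stood at 6.38 and 5.91 CPM at 1 h and at 15.0 and 16.6 CPM at 24 h (1.36 ± 0.15, edgeR adjusted p = 1.17e-07). Zfp750, a zinc finger gene of epidermal differentiation, went from 2.39 and 2.80 CPM to 6.43 and 6.82 CPM (1.34 ± 0.24, edgeR adjusted p = 2.13e-04). At higher levels, Trh, which encodes the precursor of thyrotropin-releasing hormone, went from 95.4 and 94.2 CPM to 215 and 183 CPM. That rise was 1.07 ± 0.08 (edgeR adjusted p = 4.07e-10), with no overlap between the groups. Rprd1a, a factor that binds the tail of RNA polymerase II, rose from 39.6 and 40.8 CPM to 80.3 and 86.5 CPM (1.05 ± 0.08, edgeR adjusted p = 3.13e-10). Mycl, a member of the MYC family, rose from 6.10 and 7.44 CPM to 15.0 and 14.4 CPM (1.11 ± 0.17, edgeR adjusted p = 2.11e-05). Sfrp2, a secreted Wnt antagonist, rose by 1.08 ± 0.16, and Aldh1l2, a mitochondrial enzyme of folate metabolism, by 1.18 ± 0.21.

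The p53 targets that passed the test under vehicle were all higher at 24 h. Of 23 tested members of a list of 28, 18 passed the test upwards and 0 downwards, against 8.91% and 9.63% of all tested genes. The list median was 0.47, beside -0.01 over all genes. Btg2, an antiproliferative gene induced by p53, stood at 61.4 and 62.4 CPM at 1 h and 109 and 128 CPM at 24 h (0.94 ± 0.09, edgeR adjusted p = 9.85e-09). Trp53inp1, a p53-induced stress gene, stood at 239 and 238 CPM and then at 376 and 472 CPM (0.83 ± 0.08, edgeR adjusted p = 8.11e-08). Mdm2, the ubiquitin ligase that degrades p53 and is itself a p53 target, went from 235 and 254 CPM to 340 and 364 CPM (0.52 ± 0.06, edgeR adjusted p = 2.62e-07). None of these groups overlapped, and the levels of the 2 replicates differed most for Trp53inp1 at 24 h. Plk2, a polo-like kinase, rose from 95.2 and 98.3 CPM to 147 and 160 CPM (0.66 ± 0.06, edgeR adjusted p = 1.05e-08).

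Less abundant p53 targets changed in the same direction with wider errors. Trp73, the p53 family member, went from 4.27 and 4.64 CPM to 7.62 and 8.23 CPM (0.83 ± 0.17, edgeR adjusted p = 7.66e-04). Ptprv, a receptor phosphatase gene, went from 15.7 and 16.5 CPM to 24.7 and 19.97 CPM (0.47 ± 0.12, edgeR adjusted p = 7.00e-03), a call lost without replicate 1 of either time point. Cdkn1a, the p21 cell cycle inhibitor, stood at 19.8 and 17.5 CPM at 1 h and 23.9 and 26.5 CPM at 24 h (0.44 ± 0.13, edgeR adjusted p = 0.020), a call lost without replicate 2 of either time point (edgeR adjusted p = 0.178 and 0.145). The tested members that did not pass were Ddb2, Ei24, Aen, Perp and Dcxr. With 1 library left out, 13 to 16 members were called higher. In a fit over all 38 libraries with batch as a term, 7 were (median 0.35), and Plk2 and Trp73 no longer passed (edgeR adjusted p = 0.338 and 0.183).

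**Figure D2:**
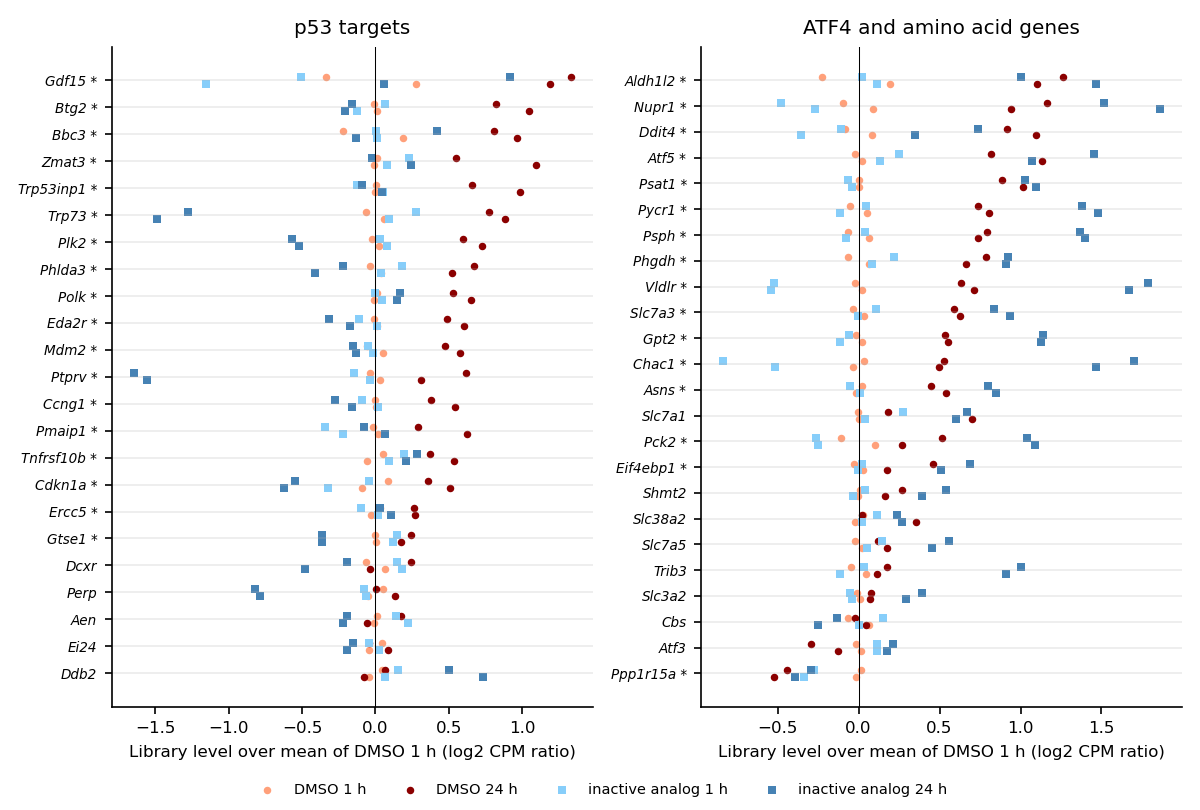
Level of each tested p53 target (left) and each tested ATF4 and amino acid gene (right) in single libraries, as the log2 ratio of CPM to the mean of the 2 DMSO 1 h libraries; each point is 1 library, circles are DMSO, squares are the inactive analog, and stars mark genes called in vehicle. Dark red circles (DMSO 24 h) lie to the right of the 1 h points for 18 called p53 targets, while the analog 24 h squares lie left of 0 for genes such as Trp73 and Ptprv.

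Amino acid genes controlled by ATF4 rose as well. Of 24 tested members of a list of 33, 15 passed upwards and 1 downwards, with a median of 0.50. Psat1, an aminotransferase of serine synthesis, had the smallest adjusted p of the genes named here: it stood at 429 and 429 CPM at 1 h and at 793 and 866 CPM at 24 h (0.95 ± 0.05, edgeR adjusted p = 7.84e-13). Psph, the phosphatase that completes serine synthesis, went from 44.3 and 48.4 CPM to 80.2 and 77.2 CPM (0.76 ± 0.07, edgeR adjusted p = 7.20e-09). The groups were well apart for both enzymes of the serine pathway. Pycr1, which makes proline, rose from 13.2 and 14.2 CPM to 22.9 and 23.96 CPM (0.77 ± 0.11). Asns, asparagine synthetase, rose from 419 and 409 CPM to 565 and 601 CPM (0.49 ± 0.05). Gpt2, a mitochondrial alanine transaminase, rose from 117 and 120 CPM to 171 and 173 CPM (0.54 ± 0.05, edgeR adjusted p = 2.47e-08). The cationic amino acid carrier gene Slc7a3 rose from 164 and 172 CPM to 252 and 259 CPM (0.61 ± 0.06, edgeR adjusted p = 5.11e-08).

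Stress-linked members of the same list varied more. Nupr1, a small stress-induced chromatin protein, rose from 9.67 and 10.99 CPM to 23.1 and 19.8 CPM (1.06 ± 0.14, edgeR adjusted p = 4.87e-06). Vldlr, a lipoprotein receptor, rose from 4.65 and 4.77 CPM to 7.30 and 7.71 CPM (0.67 ± 0.14, edgeR adjusted p = 1.22e-03). Chac1, whose product degrades glutathione, went from 17.7 and 17.0 CPM to 25.0 and 24.5 CPM (0.51 ± 0.13, edgeR adjusted p = 6.42e-03), a call lost without 1 h replicate 2 (edgeR adjusted p = 0.063). Ddit4, an inhibitor of mTORC1 signalling, went from 21.97 and 24.6 CPM to 44.0 and 49.9 CPM (1.01 ± 0.21, edgeR adjusted p = 3.79e-03) and did not pass without 24 h replicate 2 (edgeR adjusted p = 0.052). The member that fell was Ppp1r15a, the phosphatase subunit that restores translation after stress, from 71.2 and 69.9 CPM to 52.0 and 49.1 CPM (-0.48 ± 0.08). Trib3, a pseudokinase that ATF4 induces, did not pass (0.15 ± 0.08). With 1 library left out, 13 to 16 members were called higher and 1 lower.

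The enzymes that load amino acids onto tRNAs were higher too: 8 of 14 tested aminoacyl-tRNA synthetases passed upwards and 0 downwards (median 0.31), and 8 or 9 with 1 library left out. Gars, which charges glycine, went from 734 and 741 CPM to 1048 and 1046 CPM (0.51 ± 0.05, edgeR adjusted p = 3.89e-08). Sars, which charges serine, went from 369 and 364 CPM to 561 and 516 CPM (0.56 ± 0.06, edgeR adjusted p = 6.76e-08). Both 24 h libraries exceeded both 1 h libraries for each enzyme.

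Promoter windows of these genes were searched for the CHOP-ATF composite element, to which ATF4 can bind, written TGATGNAAN and looked for on both strands from 250 bases before to 50 after the RefSeq start site. A match was present in 6 of the 12 ATF4-list genes called higher that had a window (Asns, Chac1, Nupr1, Pck2, Pycr1 and Vldlr) and in 3 of 5 synthetases called higher (Gars, Tars and Yars). Among tested members with a window the counts were 8 of 20 and 3 of 8. The motif was present in 2.72% of the windows of 9023 tested genes and in 3.95% of all 32851 windows. Of 16 p53-list genes with a window, 1 held it (Polk). The sequences below show the matches in 6 genes that rose; each is 53 bases of RefSeq sequence on GRCm38.p6, read 5′ to 3′ on the strand of the gene, and the capitals mark the match. They are reference sequences and were not read from these libraries, and a match is a description of the letters rather than a measured binding site.

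Asns: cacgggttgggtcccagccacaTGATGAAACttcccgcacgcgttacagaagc

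Pycr1: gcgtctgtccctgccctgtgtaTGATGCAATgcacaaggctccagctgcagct

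Chac1: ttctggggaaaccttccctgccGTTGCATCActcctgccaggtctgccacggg

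Vldlr: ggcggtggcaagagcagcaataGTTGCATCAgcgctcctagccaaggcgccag

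Nupr1: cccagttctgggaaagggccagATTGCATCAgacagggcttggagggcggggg

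Gars: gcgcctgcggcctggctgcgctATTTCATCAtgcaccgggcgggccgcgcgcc

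Asns (chr6:7693202-7693254, minus strand) and Pycr1 (chr11:120643821-120643873, minus strand) carried the motif in the direction of the gene, with its first base at -23 and -103 from the start site. Chac1 (chr2:119351026-119351078, plus strand), Vldlr (chr19:27216797-27216849, plus strand), Nupr1 (chr7:126625551-126625603, minus strand) and Gars (chr6:55037948-55038000, plus strand) carried it on the opposite strand, at -194, -201, -111 and -31.

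Part of the germline list was lower at 24 h, with 40.0% of it called beside 18.5% of all tested genes. Of 20 tested, 7 fell and 1 rose (median -0.25), with 4 to 8 called lower and a median of -0.35 to -0.14 when 1 library was left out, and 4 called lower with the compared libraries alone. Smc1b, a cohesin subunit of meiosis, stood at 38.3 and 41.5 CPM at 1 h and 17.1 and 18.98 CPM at 24 h (-1.15 ± 0.10, edgeR adjusted p = 5.12e-09). Sycp1, a protein of the synaptonemal complex that joins meiotic chromosomes, went from 32.5 and 31.3 CPM to 17.7 and 18.5 CPM (-0.82 ± 0.10, edgeR adjusted p = 9.51e-07). Stag3, another meiotic cohesin subunit, fell from 136 and 136 CPM to 93.4 and 79.9 CPM (-0.65 ± 0.07), and Tex19.1, which restrains retrotransposons in germ cells, from 115 and 115 CPM to 84.3 and 85.2 CPM (-0.44 ± 0.06). For these 4 genes every 24 h library lay below every 1 h library.

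In the BMP pathway, Bmp4 and Id3 were lower at 24 h. Of the BMP and Id list 41.7% was called, beside 18.5% of all tested genes. Bmp4, a ligand that supports self-renewal through Id proteins (chr14:46383520-46390669), went from 142 and 139 CPM to 70.2 and 68.1 CPM (-1.02 ± 0.06, edgeR adjusted p = 1.48e-12). Id3, an Id gene that BMP signals induce, went from 39.8 and 38.7 CPM to 22.4 and 19.2 CPM (-0.91 ± 0.13, edgeR adjusted p = 2.13e-05). Both were separated by time without overlap. Of the 12 tested BMP and Id genes 4 fell and 1 rose (median -0.42), and 2 or 3 were called lower with 1 library left out. The list median was -0.22 without 1 h replicate 2 and -0.19 over all 38 libraries with batch as a term. The ligand Bmp2 (-0.58) and the receptor Bmpr1a (0.24) each kept their call in only 1 of the 4 fits with a library left out (highest edgeR adjusted p = 0.190 and 0.446).

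Wnt targets fell or did not pass: 4 of 11 were lower and 0 higher (median -0.10), 36.4% called beside 18.5% of all tested genes. Axin2, the feedback inhibitor of the pathway, stood at 18.9 and 24.9 CPM at 1 h and 12.3 and 14.5 CPM at 24 h (-0.71 ± 0.12, edgeR adjusted p = 1.18e-04). Notum, an enzyme that inactivates Wnt ligands, stood at 23.7 and 26.2 CPM and then at 17.0 and 10.9 CPM (-0.84 ± 0.14, edgeR adjusted p = 1.22e-04), with replicates that differed from each other at 24 h. The transcription factor gene Sp5 lost its call without 1 h replicate 1 or 24 h replicate 2 (edgeR adjusted p = 0.126 and 0.147).

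Nodal and Activin genes divided, with 3 of 11 higher and 3 lower (median 0.16), 54.5% called beside 18.5% of all tested genes. Fst, which traps Activin, fell from 32.5 and 31.4 CPM to 21.2 and 19.7 CPM (-0.64 ± 0.09, edgeR adjusted p = 6.76e-06). Foxh1, the partner through which SMAD proteins bind DNA, fell from 31.9 and 30.8 CPM to 22.4 and 19.7 CPM (-0.57 ± 0.10). Lefty2, a secreted Nodal inhibitor, rose from 32.6 and 31.6 CPM to 51.5 and 46.6 CPM (0.61 ± 0.11, edgeR adjusted p = 1.83e-04). These inhibitors of related ligands changed in opposite directions.

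Genes downstream of ERK signalling were also mixed, with 2 of 14 feedback genes higher and 3 lower. The share called was 35.7% for these and 41.2% for immediate early genes, beside 18.5% of all tested genes. The ETS factor Etv4 fell from 286 and 290 CPM to 213 and 204 CPM (-0.47 ± 0.06, edgeR adjusted p = 3.56e-06), whereas its relative Etv5 rose by 0.29 ± 0.06. Phlda1, an ERK-induced gene, fell from 7.98 and 7.49 CPM to 3.12 and 4.46 CPM (-1.04 ± 0.20). Of 17 immediate early genes, which respond within minutes to growth factors, 4 were higher and 3 lower. Egr1, a zinc finger gene of this class, rose from 4.74 and 3.50 CPM to 7.48 and 10.9 CPM (1.15 ± 0.24, edgeR adjusted p = 1.93e-03). Myc, the growth regulator, fell from 161 and 154 CPM to 101 and 107 CPM (-0.60 ± 0.10, edgeR adjusted p = 1.66e-04), a call that did not hold over all 38 libraries with batch as a term (edgeR adjusted p = 0.089).

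Of the core pluripotency genes 25.0% were called and of the naive genes 18.8%, beside 18.5% of all tested genes. Of 16 core pluripotency genes 3 were higher and 1 lower (median 0.01). Among 16 naive genes 2 were higher and 1 lower (median 0.07). The calls of the core genes Nanog, Sall1 and Lin28b and of the naive gene Gbx2 were not kept with every library left out. With the compared libraries alone, 0 core genes were higher and 1 lower, and 2 naive genes were higher and 0 lower. Pou5f1, which encodes OCT4, stood at 1629 and 1671 CPM at 1 h and at 1773 and 1511 CPM at 24 h, with overlapping groups and a change of -0.01 ± 0.07. Dppa2, a chromatin factor of pluripotent cells, fell from 182 and 174 CPM to 121 and 125 CPM (-0.53 ± 0.06, edgeR adjusted p = 1.65e-07). The naive factor gene Esrrb rose from 476 and 500 CPM to 626 and 713 CPM (0.46 ± 0.07, edgeR adjusted p = 1.89e-05). Tcl1, an activator of AKT expressed in naive cells, rose from 34.8 and 37.0 CPM to 64.2 and 64.2 CPM (0.84 ± 0.09, edgeR adjusted p = 5.24e-08). Among 8 formative and primed genes 1 was higher and 2 lower (37.5% called, median -0.18). Their median was -0.01 over all 38 libraries with batch as a term, where 1 was higher and 1 lower. Cdh2 and Zic5 lost their calls in some fits with a library left out. The de novo DNA methyltransferase gene Dnmt3a fell from 371 and 370 CPM to 281 and 308 CPM (-0.33 ± 0.06).

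Genes of the 2-cell-like state, a rare early embryo programme, had a high median with weak calls. The share called was 21.4%, near the 18.5% of all tested genes. The median of 14 tested was 0.57, with 3 called higher and 0 lower, but 0 or 1 was called with 1 library left out. Zscan4a, a marker of that state, stood at 2.49 and 3.20 CPM at 1 h and at 4.59 and 4.51 CPM at 24 h (0.67 ± 0.19), a call lost without 1 h replicate 1 (edgeR adjusted p = 0.159). The genes of this family are near-identical copies, so reads may be divided among them.

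Some DNA replication genes were slightly lower, with 40.0% of the list called. The share was 14.3% for mitotic genes and 6.25% for ribosomal protein genes, beside 18.5% of all tested genes. Of 25 tested 10 fell and 0 rose (median -0.13), 3 to 8 were called lower with 1 library left out, and 2 with the compared libraries alone. Cdc45, part of the replicative helicase, went from 110 and 113 CPM to 87.4 and 83.1 CPM (-0.38 ± 0.06, edgeR adjusted p = 7.37e-05). Of 21 mitotic genes 3 were higher and 0 lower, among them the kinase genes Plk1, from 172 and 166 CPM to 207 and 226 CPM (0.36 ± 0.07), and Bub1b (0.25 ± 0.06). The cell cycle brakes moved both ways, with 3 of 15 higher and 3 lower (40.0% called). Gadd45b, a growth arrest gene, fell by 0.57 ± 0.13 on the log2 scale. Of 16 ribosome biogenesis genes 1 was higher and 3 lower (25.0% called). Of 16 ribosomal protein genes 1 was higher and 0 lower, which became 0 higher and 2 lower without 24 h replicate 1, where the list median went from 0.06 to -0.08.

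Another 7 stress and metabolic lists had between 22.2% (hypoxia and glycolysis) and 62.5% (heat shock) of their tested members called, beside 18.5% of all tested genes. Of 13 genes of the unfolded protein response of the endoplasmic reticulum, 3 were higher and 0 lower. Herpud1, which aids the disposal of misfolded proteins, went from 28.6 and 29.1 CPM to 40.1 and 35.9 CPM (0.40 ± 0.09), and the chaperone gene Pdia6 rose by 0.25 ± 0.05. Of 8 heat shock genes 4 were higher and 1 lower, with 1 to 4 called higher when 1 library was left out. Hsp90aa1, an abundant chaperone gene, rose by 0.27 ± 0.05. Nqo1, a quinone reductase turned on by NRF2, fell from 78.7 and 77.4 CPM to 56.8 and 54.7 CPM (-0.48 ± 0.07, edgeR adjusted p = 7.39e-06) in a list with 1 of 11 higher and 3 lower. Pdk1, a kinase that restrains entry of pyruvate into the citric acid cycle and a hypoxia target, fell from 392 and 387 CPM to 265 and 276 CPM (-0.53 ± 0.06, edgeR adjusted p = 9.79e-08). The hypoxia and glycolysis list as a whole had 4 of 27 higher and 2 lower. Sterol genes were lower in 5 of 22 and higher in 0 (median -0.09), with 2 to 4 lower when 1 library was left out. Insig1, the sensor that retains the sterol regulator in the endoplasmic reticulum, fell from 104 and 107 CPM to 79.2 and 85.2 CPM (-0.36 ± 0.06, edgeR adjusted p = 1.62e-04). Lysosome and autophagy genes were higher in 5 of 24 and lower in 1, with the protease gene Ctsb (0.29 ± 0.05) and the cholesterol carrier gene Npc2 (0.29 ± 0.06) among them. Mitochondrial respiration genes were higher in 5 of 23 and lower in 1 (median 0.08), with 0 to 4 higher when 1 library was left out.

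S100a6, a calcium-binding protein of epithelia, went from 90.9 and 91.8 CPM to 42.6 and 41.6 CPM (-1.12 ± 0.09, edgeR adjusted p = 2.07e-09), and Anxa1, a membrane-binding annexin, from 24.5 and 24.2 CPM to 13.1 and 13.6 CPM (-0.87 ± 0.11). They were 2 of the 3 lower members of an 11-gene list of keratins and epithelial genes, of which 0 were higher. Ccn2, a secreted target of YAP and TEAD, fell from 270 and 259 CPM to 179 and 187 CPM (-0.53 ± 0.06, edgeR adjusted p = 2.40e-07), and its list had 1 of 14 higher and 3 lower. Notch genes went the other way, with 2 of 7 higher and 0 lower. The shares called were 27.3% (keratins and epithelial), 28.6% (YAP and TEAD) and 28.6% (Notch), beside 18.5% of all tested genes. The ligand gene Jag1 rose from 17.2 and 18.4 CPM to 28.7 and 28.6 CPM (0.68 ± 0.10) and the receptor gene Notch3 from 27.8 and 27.3 CPM to 39.3 and 43.3 CPM (0.58 ± 0.11).

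Markers of other cell types showed no common direction. The shares called were 44.4% (endothelial), 40.0% (primitive and visceral endoderm), 12.5% (trophoblast) and 10.0% (mesoderm), beside 18.5% of all tested genes. Of 9 endothelial markers tested 4 were lower and 0 higher, with 2 to 4 lower when 1 library was left out. Their summed level was 194 and 190 CPM at 1 h and 149 and 151 CPM at 24 h, and Egfl7, Emcn and Eng were listed at 0. Besides Robo4, the junction gene Esam fell from 11.6 and 13.5 CPM to 6.89 and 5.24 CPM (-1.05 ± 0.16, edgeR adjusted p = 3.61e-05). The calls of the receptor gene Kdr and the adhesion gene Pecam1 were not kept with every library left out. Summed trophoblast markers were 78.5 and 80.6 CPM at 1 h and 83.5 and 84.6 CPM at 24 h, mesoderm markers 15.5 and 13.7 CPM and then 12.4 and 12.9 CPM, and neural markers 54.7 and 57.1 CPM and then 62.2 and 61.8 CPM. Primitive endoderm markers summed to 1627 and 1636 CPM at 1 h and to 1573 and 1919 CPM at 24 h. Of 10 tested 2 were higher and 2 lower, and Col4a1, Hnf4a and Pdgfra were listed at 0 in all 4 libraries. None of the called endoderm markers, Ttr, Dab2, Foxa2 and Gata6, kept its call with every library left out. With the compared libraries alone, 0 endoderm markers were higher and 0 lower. In these bulk libraries, fewer cells of a type and less RNA per cell cannot be told apart.

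Adhesion and junction genes were higher in 3 of 17 and lower in 3, with the junction protein gene Jup at -0.41 ± 0.07 and the integrin gene Itgb5 at 0.30. Axon guidance genes were higher in 2 of 14 and lower in 3, matrix genes in 1 of 21 each way, and interferon-stimulated genes in 2 of 12 and 1. Circadian clock genes were lower in 2 of 13 and higher in 0. The shares called were 35.3% (adhesion and junction), 35.7% (axon guidance), 9.52% (matrix), 25.0% (interferon-stimulated) and 15.4% (circadian clock), beside 18.5% of all tested genes. Fatty acid synthesis genes (1 of 5) and glucose-sensing arrestin-like genes (1 of 4) each had 1 lower member, the desaturase gene Fads2 (-0.39 ± 0.07) and Arrdc3 (-0.27 ± 0.06). The call of Arrdc3 was lost over all 38 libraries with batch as a term (edgeR adjusted p = 0.163).

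Chromatin genes were called in shares of 25.0% (SWI/SNF), 26.3% (Polycomb) and 33.3% (DNA methylation enzymes), beside 18.5% of all tested genes, in both directions for the first 2 lists. Among 20 SWI/SNF subunits, the complex that BRM014 targets, 3 were higher and 2 lower in vehicle. Phf10, a subunit of the PBAF form, rose by 0.31 ± 0.06. Of 19 Polycomb genes 3 were higher and 2 lower, and of 6 DNA methylation enzymes 2 were lower and 0 higher. The Polycomb genes Ring1, Phc1, Phf19 and Rbbp4 did not keep their calls with every library left out. With the compared libraries alone, 0 Polycomb genes were higher and 0 lower. In that fit 1 SWI/SNF subunit was higher and 0 lower, and 1 DNA methylation enzyme was lower and 0 higher. The imprinted gene Grb10, an adaptor that dampens growth factor signalling (chr11:11930508-12038683), stood out among 10 imprinted genes by size. It went from 615 and 613 CPM to 1048 and 1222 CPM (0.89 ± 0.06, edgeR adjusted p = 2.99e-11), while the list had 1 higher and 1 lower.

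**Figure D3:**
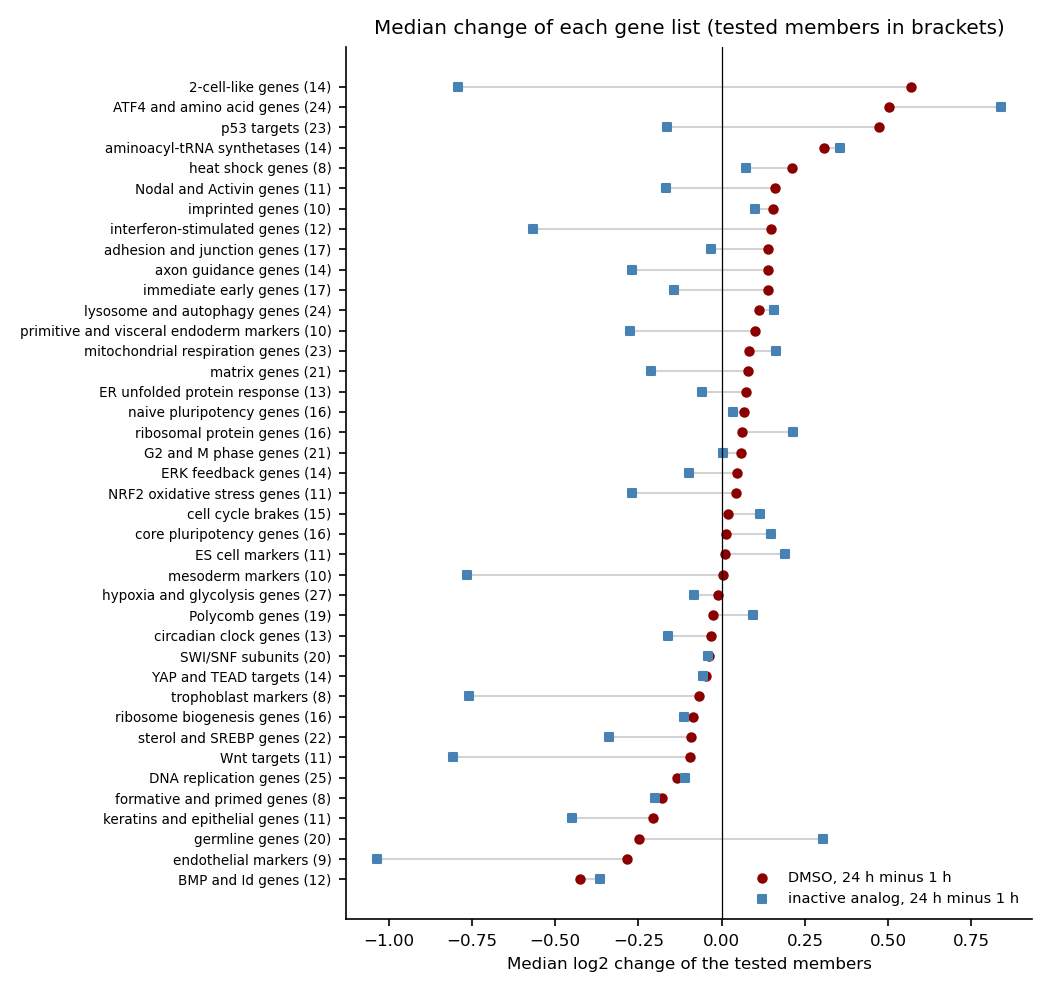
Median log2 change of each gene list with at least 8 tested members from 1 h to 24 h, with vehicle and the inactive analog as separate points, and a line at 0. The p53 targets lie at 0.47 in vehicle and -0.16 under the analog, the germline genes at -0.25 and 0.30, and the ATF4 and amino acid genes at 0.50 and 0.84.

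The same day under the inactive analog gave a second time contrast with no shared library. It called 4248 of 12517 genes (33.9%), 2080 higher (16.6%) and 2168 lower (17.3%). Both contrasts called 1373 genes, 1291 of them with the same sign, which is 55.6% of the vehicle calls and 30.4% of the analog calls. Among vehicle calls 83.6% had the same sign under the analog, beside 65.6% of all tested genes. Over the 8634 genes with a mean log2 CPM of at least 2, the 2 changes had a Pearson r of 0.53 across genes, as a description. Relative to DMSO at 1 h, replicate 2 of both 24 h groups followed GC content (r of -0.26 in vehicle and -0.32 with the analog). The part of that in the likeness of the contrasts was not tested. The difference between the contrasts, vehicle minus analog, passed the test for 1380 genes (11.0%), 708 higher (5.66%) and 672 lower (5.37%). Of the vehicle calls, 472 (20.3%) were among them. Counts of list members called under the analog or for the difference are to be read beside these shares of all tested genes.

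**Figure D4:**
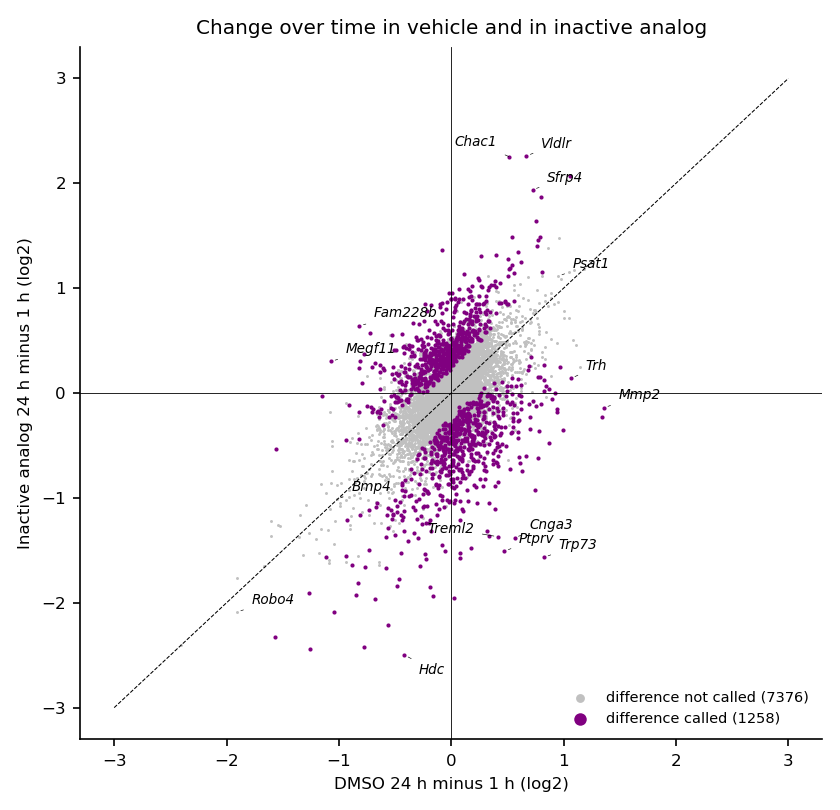
Log2 change from 1 h to 24 h in vehicle (horizontal) against that under the inactive analog (vertical) for 8634 genes with a mean log2 CPM of at least 2; the line marks equal change and purple points are genes whose difference passed the test. Robo4, Bmp4 and Psat1 lie near the line, while Mmp2, Trh and Trp73 lie below it and Chac1 and Vldlr above it.

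Some of the largest vehicle changes were matched under the analog. Robo4 fell by 2.09, Bmp4 by 1.01, Id3 by 0.92 and Aqp3 by 1.16 with the analog, and Grb10 rose by 0.91, Tcl1 by 0.93 and Aldh1l2 by 1.18. Of the BMP and Id genes 1 was higher and 5 lower under the analog (median -0.36), and 0 of the 12 passed the test of the difference. These are values side by side, and a difference that misses the threshold does not show that the changes are equal.

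The p53 targets behaved differently in the 2 contrasts. Under the analog 3 of 23 were higher and 12 lower (median -0.16), and the difference passed for 15 members upwards and 1 downwards (median 0.71). Btg2 changed by 0.94 in vehicle and -0.16 under the analog, a difference of 1.10 (edgeR adjusted p = 9.06e-07). Plk2 changed by 0.66 and -0.60, a difference of 1.26, and Mdm2 by 0.52 and -0.10, a difference of 0.63. The contrast ran the other way for amino acid genes: under the analog 19 of 24 were higher and 1 lower (median 0.84). The difference passed for 12 members, all with the lower change in vehicle. Psph changed by 0.76 in vehicle and 1.40 under the analog, a difference of -0.64, and Chac1 by 0.51 and 2.26. Chac1 was at 9.73 and 12.1 CPM in the analog 1 h libraries, below its 17.7 and 17.0 CPM in vehicle at 1 h. Psat1 changed by 0.95 and 1.11.

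Genes of the 2-cell-like state had a median of -0.79 under the analog. Of 14 tested 0 were higher and 4 lower, beside 16.6% and 17.3% of all tested genes. The difference passed for 5 of them, all with the higher change in vehicle. Germline genes also differed. Under the analog 10 of 20 were higher and 3 lower (median 0.30), and the difference passed downwards for 8 and upwards for 2 (median -0.43). Smc1b changed by -1.15 in vehicle and -0.03 under the analog, a difference of -1.12. The analog libraries began from another level: relative to DMSO at 1 h, the median level of the germline list was -0.21 and -0.13 in the 2 analog 1 h libraries, and the part of that in the difference was not tested. Among single genes, Mmp2 rose by 1.36 in vehicle and changed by -0.14 under the analog, a difference that passed the test (edgeR adjusted p = 2.1e-05). Trh rose by 1.07 and changed by 0.14, a difference of 0.93. Tle6 fell by 1.56 and changed by -0.53, a difference of -1.03 (edgeR adjusted p = 5.22e-04). Lefty2 rose by 0.61 and changed by -0.67, a difference of 1.28 (edgeR adjusted p = 3.44e-06). Dppa2 fell by 0.53 and changed by -0.02, a difference of -0.51.

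Levels of the lists in other groups of the batch place the vehicle day among them. As the median over the tested members of the log2 level relative to DMSO at 1 h, the p53 targets stood at 0.48 and 0.54 in the 2 DMSO 24 h libraries, at -0.16 and -0.17 after 24 h of the analog, and at -0.40 and -0.38 after 24 h of BRM014. After BRM014 had been washed out for 6 h they stood at 0.39 and 0.32. The amino acid genes stood at 0.52 and 0.55 in DMSO at 24 h, 0.88 and 0.91 with the analog, and 0.54 and 0.51 with 24 h of BRM014. At 6 h of BRM014 they were below the start, at -0.56 and -0.49. All of these values share the DMSO 1 h libraries and are given as levels without a test.

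**Figure D5:**
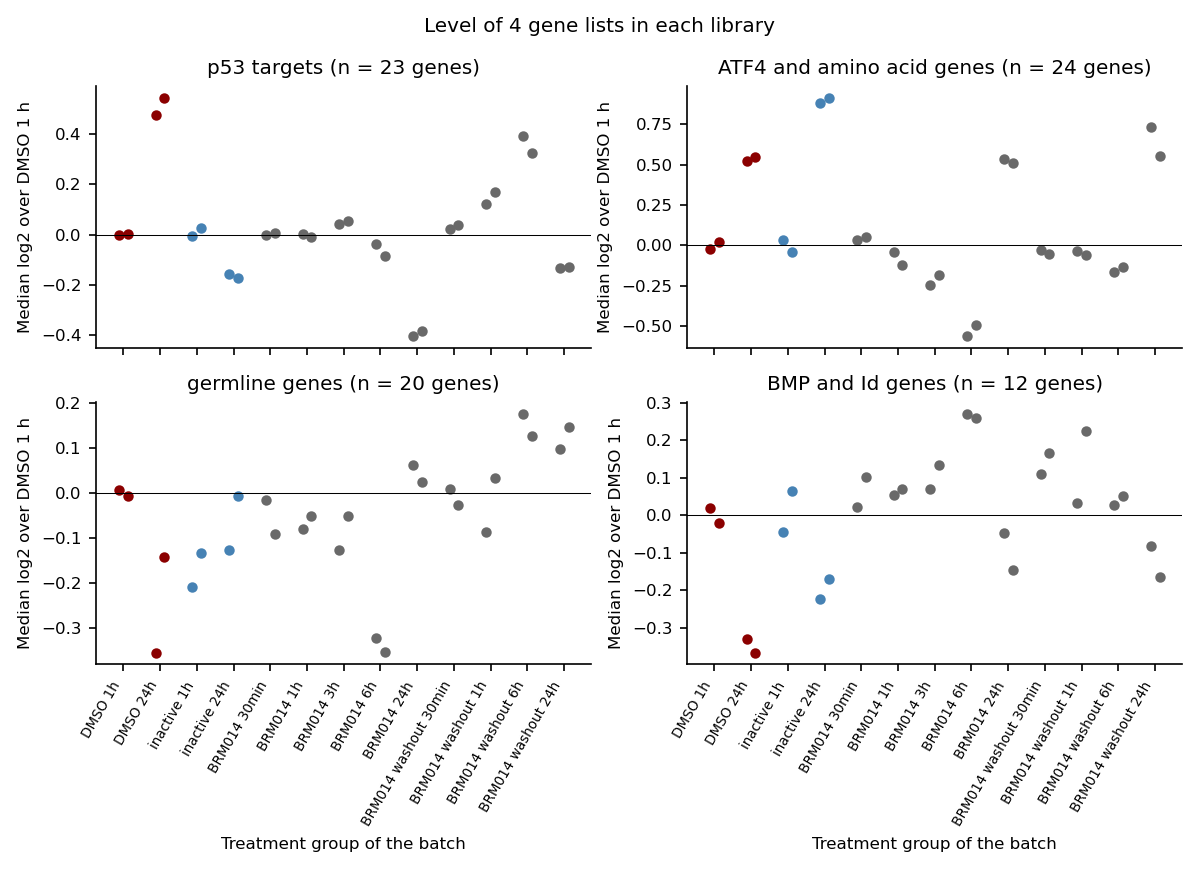
Median over the members of 4 gene lists of the log2 level relative to DMSO at 1 h, in each library of the batch, with 1 panel per list, groups on the horizontal axis and each point 1 library. The p53 targets are above 0 in DMSO at 24 h and below it with the analog or BRM014 at 24 h, whereas the ATF4 and amino acid genes are above 0 in all of these 24 h groups.

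A second experimental batch held replicates 3 and 4 of DMSO for 24 h but no 1 h vehicle, so batch and time cannot be told apart there. With all 38 libraries scaled together, the amino acid genes stood 0.23 and 0.21 above the first batch's 1 h level, compared with 0.53 and 0.57 in its own 24 h libraries. The synthetases stood at 0.23 and 0.23, compared with 0.28 and 0.34, and the germline genes at -0.41 and -0.36, compared with -0.34 and -0.12. The p53 targets did not stand above the 1 h level there, at -0.14 and -0.17 compared with 0.49 and 0.56. BMP and Id genes stood at 0.04 and 0.05, compared with -0.32 and -0.35, although Bmp4 itself was at 77.0 and 77.3 CPM, near its 24 h level in the first batch. DNA replication genes stood at 0.08 and 0.07, compared with -0.10 and -0.13, and Wnt targets at -0.89 and -0.21, compared with -0.14 and -0.02. Robo4 (5.45 and 6.10 CPM), Trh (211 and 179 CPM) and Psat1 (690 and 696 CPM) were on the 24 h side in the second batch too. Aqp3 (35.1 and 29.5 CPM), Id3 (30.3 and 31.9 CPM) and Grb10 (753 and 758 CPM) lay between the 2 time points of the first.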

How the data were processed

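Total RNA was measured by stranded sequencing, per the labels' protocols (TruSeq stranded total RNA). The authors deposited 1 table of read counts per gene for 38 libraries. The submitters' processing notes name bcl2fastq 2.17, STAR and GRCm38/mm10. Counting program, annotation and strand setting: not given in the sources used here. Reads of overlapping or antisense genes may therefore not be told apart. Of 55385 genes in the table, 55144 matched GENCODE M21 by identifier, and 32977 were at 0 in every library.

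The 26 libraries of batch 2450 (19.3 M to 23.1 M counts each) were fitted together as 13 groups with edgeR 4.0.16 in R 4.3.3. Genes were kept by filterByExpr (minimum count 10, total 15), scaled by TMM, tested by the robust quasi-likelihood test and called at a Benjamini-Hochberg adjusted p below 0.05. Vehicle, analog and vehicle-minus-analog contrasts came from this fit. Genes named are up to 10 called rises and 10 called falls with the largest change (mean log2 CPM of at least 2, groups not overlapping, no predicted models), up to 5 differences from the analog in each direction by the same rule, and up to 4 called members of each of 47 lists by adjusted p. Cdkn1a, Asns, Pycr1 and Ppp1r15a were named after their values were seen, and uncalled members and genes with a promoter match are also named. Members and lists were chosen with earlier results of these data known.

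Alternatives covered DESeq2 1.42.0, other scalings and filters, leaving out each library, a replicate block, all 38 libraries with batch as a term and the compared libraries alone. The edgeR steps were tested on simulated data in which each gene had the same spread in all groups. The larger spread of the DMSO 24 h replicates and their trend over GC content and length were not simulated.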

Additional observations from a re-analysis of the deposited data

Results flagged for a closer look

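Every result here was singled out because the change from 1 h to 24 h differed between vehicle and the inactive analog by a direct test of that difference (edgeR quasi-likelihood, Benjamini-Hochberg adjustment), which called 1380 genes. With 2 libraries in each group, these 10 genes had the largest differences by the naming rule, and their source was not tested.

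Genes whose change was higher in vehicle than with the analog were led by Trp73, with a difference of 2.39 (0.83 in vehicle and -1.57 with the analog). Hdc, which makes histamine, differed by 2.08; its vehicle change did not pass (-0.42) and its analog change was -2.50, from 10.8 and 8.30 CPM to 1.19 and 2.174 CPM. Ptprv differed by 1.98 (0.47 and -1.51). Cnga3, a cyclic nucleotide-gated channel gene, differed by 1.94 (0.56 and -1.38). Treml2, a receptor gene of myeloid and B cells, differed by 1.79 (0.42 and -1.37). The vehicle changes of Cnga3 and Treml2 did not pass in any fit with a library left out. In those fits they lay between 0.55 and 0.59 for Cnga3 and between 0.21 and 0.59 for Treml2.

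Genes whose change was lower in vehicle than with the analog were led by Chac1, with a difference of -1.74 (0.51 in vehicle and 2.26 with the analog), and Vldlr, with -1.59 (0.67 and 2.26). Both started lower in the analog 1 h libraries than in vehicle at 1 h, with Vldlr at 3.27 and 3.24 CPM against 4.65 and 4.77 CPM. Fam228b differed by -1.46 (-0.82 and 0.64) and was likewise lower in the analog libraries at 1 h, at 3.59 and 3.42 CPM against 6.01 and 5.91 CPM. Megf11, a cell surface gene with EGF-like repeats, differed by -1.37 (-1.07 and 0.30). Sfrp4, a secreted Wnt antagonist, differed by -1.21 (0.72 and 1.94), from 3.73 and 3.65 CPM at 1 h of analog to 15.3 and 12.96 CPM at 24 h.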

How the results depend on the processing

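A fit on the compared libraries alone, which also tested fewer genes, called 895 genes in vehicle and 871 for the difference from the analog, but 4468 with the analog, more than the 4248 of the fit over the batch. Leaving out 1 library gave 1147 to 2736 calls in vehicle, 2831 to 3490 with the analog and 737 to 1665 for the difference. DESeq2 called 2237 genes in vehicle. Scaling by library totals called 2353, with 40.4% of them higher, against 48.1% with TMM. All 38 libraries with batch as a term gave 2060 calls, with 75.6% of the calls kept. Removing each library's trend over GC content and exonic length, chosen after seeing the data, gave 2972 and kept 95.1%. For the analog contrast it gave 4432 calls and kept 81.9%, and for the difference 1766 and 88.7%. With a replicate block 2381 genes were called and 99.4% of the calls were kept; same-numbered vehicle libraries did not deviate together (r = -0.09, and 24 of 78 pairs of groups above 0.1), so the numbers were not taken to pair the samples.

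No change of a named gene turned its sign. Of 598 list medians under the alternatives 45 did, in 18 lists whose medians were at most 0.14 in size. Of 644 values of named genes with 1 library left out, 158 lost their call, and so did 104 of 1446 under the other settings. Of those 104 losses, 60 came from the compared libraries alone and 26 from all 38 libraries with batch as a term. Medians of lists moved beyond the spread between replicates in 38 of 184 values with 1 library left out. With the compared libraries alone, mitochondrial respiration genes called higher went from 5 to 0, sterol genes called lower from 5 to 2 and heat shock genes called higher from 4 to 1. With 2 libraries a group, genes at a few CPM carry wide errors: the change of Zscan4a has an SE of 0.19.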

Other observations

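One abundant gene, picked out after its values were seen, varied widely between replicates of some groups. Lars2, which encodes the mitochondrial leucyl-tRNA synthetase, stood at 432 and 220 CPM in the DMSO 1 h libraries and at 132 and 41.3 CPM at 24 h, yet its change of -1.90 ± 1.24 did not pass (edgeR adjusted p = 0.332). In the analog libraries Lars2 stood at 43.5 and 506 CPM at 1 h and at 86.3 and 75.2 CPM at 24 h, so replicates of 1 group differed by more than the time points did. The cytosolic synthetases described above showed no spread of that size between replicates. The cause of the spread was not tested.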
